A study of Homo sapiens
Mus musculus and Homo sapiens with 21 samples.

Results

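The collagen genes of a human lung cancer line and of its mouse hosts were followed through 6 groups of libraries. Every gene whose symbol was COL, a type number, A and a chain number was taken from the human table, and the same pattern in mouse spelling from the mouse table. This gave 43 of 34058 human genes and 44 of 33043 mouse genes, so 87 of 67101 gene entries in all. The cancer cells were H2030-BrM3, a brain-seeking derivative of the H2030 lung adenocarcinoma line, and reads of each library had been assigned to the human or the mouse genome, so that the cells' own collagen RNA and that of the host were counted apart. Whether collagen RNA of the cells differs between microenvironments, and how the collagen RNA of tumour-bearing brain differs from that of tumour-free brain, are the questions the design sets.

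The 21 libraries fell into 6 groups. FBMet (n = 3) and HBMet (n = 3) were forebrain and hindbrain carrying tumours that grew after the cells had been injected into the heart. SQ (n = 4) were tumours grown under the skin from cells mixed with 50% Matrigel of reduced growth factor content, a preparation of basement membrane proteins. The monolayer, labelled 2D (n = 3), was the same line in culture. FB (n = 4) and HB (n = 4) were forebrain and hindbrain without tumours, whose labels also list the cell line and do not say whether those mice had been injected. All hosts were athymic nu/nu mice, which lack a normal T cell compartment, aged 5 to 6 weeks at injection. Tumours were dissected by eye together with adjoining stroma, so a tumour library held whatever host cells lay in the piece. All cancer cells descended from 1 line. The labels do not state that the libraries of a group came from separate animals or cultures, so p-values measure the spread between these libraries.

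Collagens are triple helices of 3 polypeptide chains, each chain encoded by its own gene. Fibrillar collagens, such as types I, III and V, form the banded fibres of connective tissue, whereas type IV collagen forms the sheet-like network of basement membranes, which in brain surrounds the vessels and underlies the meninges. The chains COL4A1 and COL4A2 make the network found in nearly all basement membranes, and COL4A5 joins either COL4A3 and COL4A4 or COL4A6 in more restricted ones. Normal brain tissue holds little fibrillar collagen outside its vessels and meninges.

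Depth set how firmly each organism could be read. Human reads per library numbered 3647914 to 4563040 in FBMet, 3579907 to 6897852 in HBMet, 27253282 to 48152857 in SQ and 29579879 to 49599168 in the monolayer. Mouse reads numbered 54450435 to 71916502 in FBMet, 52358082 to 86139353 in HBMet and 2446513 to 3982107 in SQ. The tumour-free brain gave 17747167 to 20432888 mouse reads in FB and 19338017 to 23034782 in HB. Levels below are deposited RPKM (reads per kilobase of transcript and 1000000 mapped reads) rescaled to a sum of 1000000 in each library and organism. The transcript lengths behind the authors' RPKM were short: 614 bases for COL1A1, whose canonical transcript has 5914, and 6454 bases for COL4A6, with 6685. Rescaled RPKM therefore served to compare a gene, or the sum of a fixed list, with itself across libraries, and such sums weight each gene by that length. Levels of different genes are set against each other as RPM, reads per 1000000 reads of the same organism, or as RPM per kilobase of the canonical transcript. Fold changes are on the scale of log2(rescaled RPKM + 1), which understates the change of low genes, and a gene was called at a limma p-value, adjusted by Benjamini-Hochberg over all genes tested, under 0.05. Genes were tested where they reached 1 in at least 3 libraries, which left 24 of the 43 human collagens.

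Markers of human fibroblasts were nearly absent from the cancer cell reads, with a summed level of at most 1.77 in any library, whereas human carcinoma markers summed to 1605 to 1979 in FBMet, 1626 to 2252 in HBMet, 796 to 957 in SQ and 333 to 369 in the monolayer. Of those, KRT19 was at or near 0, KRT7 averaged below 1 in FBMet, HBMet and SQ, and CDH1 averaged below 1 in the monolayer. Most of each sum was KRT8 and KRT18, at 1236 and 648 of 1979 in the 1st FBMet library.

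In the cancer cells, COL26A1 and COL4A5 gave the most collagen reads at every site. COL26A1 (chr7:101362875-101559024, plus strand, GRCh38) encodes a secreted protein with an EMI domain and short collagenous stretches. It had 298 ± 49.5 RPM in FBMet, 242 ± 25.6 in HBMet, 202 ± 13.9 in SQ and 156 ± 3.61 in the monolayer (mean ± SD, n = 3, 3, 4 and 3, here and below). COL4A5, the type IV chain affected in most Alport syndrome, had 179 ± 22.4, 171 ± 15.7, 288 ± 13.9 and 149 ± 2.03 RPM at the same sites. Per kilobase of canonical transcript COL26A1, which has the shorter transcript, stood above COL4A5 at every site, also in SQ, where COL4A5 had more reads. COL26A1 stood at 100.01 ± 16.6, 81.3 ± 8.58, 67.8 ± 4.66 and 52.3 ± 1.21, and COL4A5 at 27.4 ± 3.43, 26.2 ± 2.41, 44.1 ± 2.13 and 22.9 ± 0.311 RPM per kilobase. COL3A1 (chr2:188974373-189012746, plus strand), the chain of type III collagen, followed in the metastases at 15.3 ± 2.56 in FBMet and 14.5 ± 3.97 in HBMet on that scale. COL1A1, which supplies most of the type I helix, reached 20.1 ± 1.93 in SQ, against 2.43 ± 0.0766 in the monolayer. COL6A2 stood above COL1A1 on that scale in both groups, with 87.7 ± 4.94 and 64 ± 1.04 RPM on a canonical transcript of 3445 bases.

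Some other chains of these helices were scarce, whereas COL4A6 was lower than COL4A5 but still had 41.8 ± 3.54 RPM in SQ. COL1A2, the partner of COL1A1 in type I collagen, had 296 reads against 17363 of COL1A1 over the 4 SQ libraries, 61 against 698 in FBMet, 7 against 984 in HBMet and 24 against 1659 in the monolayer. COL4A6, the partner of COL4A5, was also the lower of its pair: per canonical kilobase COL4A5 exceeded COL4A6 by 12.3 ± 2.89-fold in FBMet, 9.93 ± 1.22-fold in HBMet, 7.11 ± 0.835-fold in SQ and 7.28 ± 0.288-fold in the monolayer. COL4A3 never exceeded 1.49 in rescaled RPKM. Of the 19 collagens below the test's filter, COL8A1 alone passed that level in any of the 4 groups, at 6.35, 7.39 and 0.587 in the HBMet libraries, against at most 0.924 in FBMet, 0.467 in SQ and 0.148 in the monolayer.

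The type IV genes lie head to head in pairs, which places both starts of a pair in 1 short stretch. The stretches upstream of the start of each canonical transcript are shown because the paired genes COL4A5 and COL4A6 differed so widely in level, while COL4A1 and COL4A2 are compared at each site below. On GRCh38 with GENCODE annotation, the canonical starts of COL4A1 (chr13:110148963-110307157, minus strand) and COL4A2 (chr13:110305812-110513209, plus strand) had 126 bases between them, and those of COL4A5 (chrX:108439838-108697545, plus strand) and COL4A6 (chrX:108155607-108439497, minus strand) had 1415. The annotated spans of COL4A2 and COL4A6 begin upstream of their canonical starts. The stretch between COL4A1 and COL4A2 and the window before COL4A6 thus lie inside those spans. The whole stretch between COL4A1 and COL4A2 (chr13:110307158-110307283, plus strand) and 250 bases before COL4A5 (chrX:108439588-108439837, plus strand) and COL4A6 (chrX:108438423-108438672, minus strand) follow 5′ to 3′. Capitals mark the letters CCAAT (the CCAAT box), GGGCGG (a GC box) and TATAAA (the TATA box, found in none of these stretches), searched on both strands, so that ATTGG and CCGCCC are reverse matches.
COL4A1 to COL4A2: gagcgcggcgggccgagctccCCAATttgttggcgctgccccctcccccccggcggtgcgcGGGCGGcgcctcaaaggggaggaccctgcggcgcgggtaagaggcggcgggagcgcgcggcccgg
COL4A5: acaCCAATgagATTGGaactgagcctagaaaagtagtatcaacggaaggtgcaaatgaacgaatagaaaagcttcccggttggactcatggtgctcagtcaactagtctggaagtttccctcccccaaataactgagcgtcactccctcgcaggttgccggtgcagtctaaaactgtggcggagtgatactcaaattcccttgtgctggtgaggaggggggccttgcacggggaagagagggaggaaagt
COL4A6: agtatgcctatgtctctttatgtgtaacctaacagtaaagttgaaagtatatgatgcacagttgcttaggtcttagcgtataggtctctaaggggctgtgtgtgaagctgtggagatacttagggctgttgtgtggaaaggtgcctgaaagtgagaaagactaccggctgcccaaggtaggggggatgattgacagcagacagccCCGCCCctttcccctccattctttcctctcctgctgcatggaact
COL4A5 held CCAAT 2 times and neither other motif, COL4A6 held GGGCGG once, and the stretch between COL4A1 and COL4A2 held 1 CCAAT and 1 GGGCGG. No match overlapped another. Among 250-base stretches upstream of 20046 protein-coding genes, 34.3% held CCAAT, 59% GGGCGG and 9.34% TATAAA. These matches describe letters in a window and say nothing of which factor was bound.

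**Figure D1:**
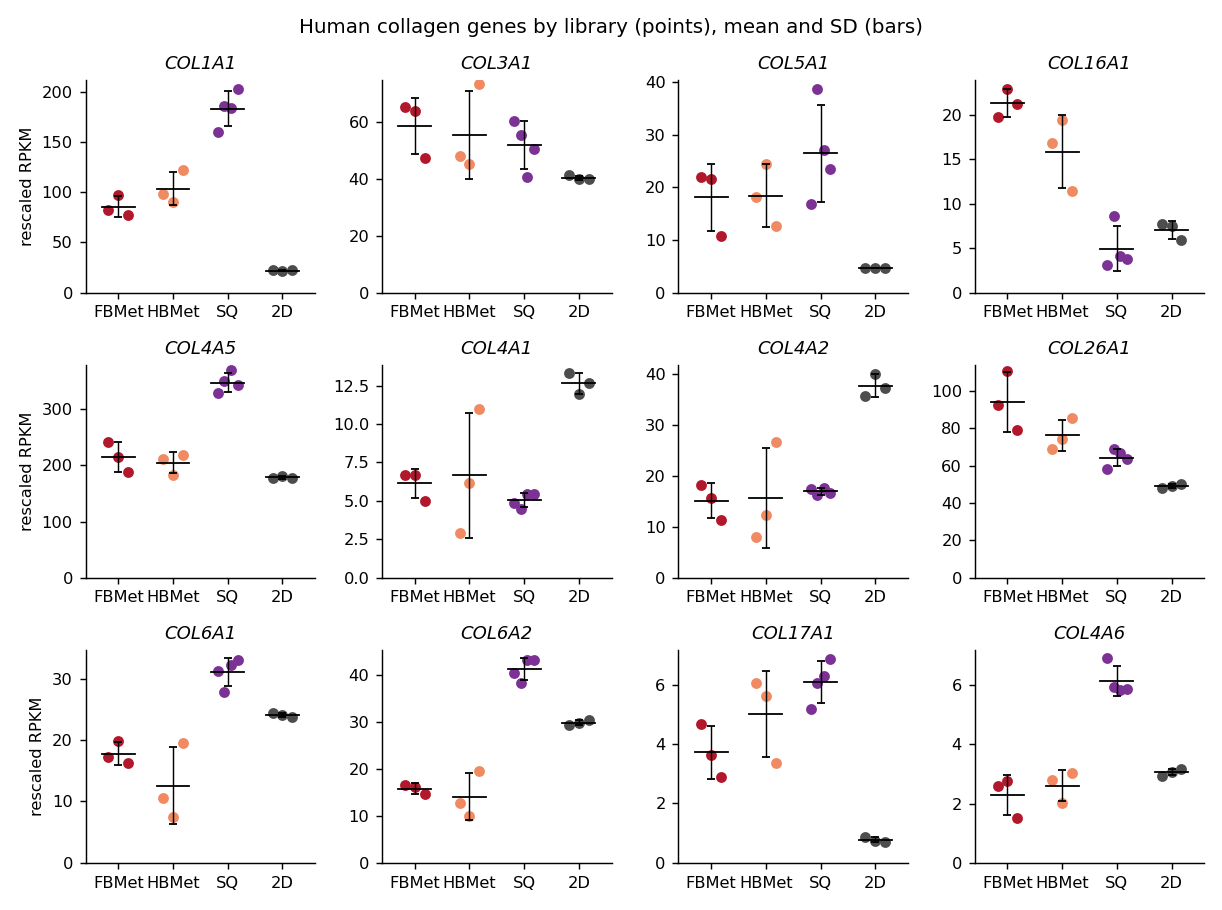
Rescaled RPKM of 12 human collagen genes in FBMet, HBMet, SQ and monolayer libraries, 1 panel per gene with its own axis. Points are libraries, bars mean and SD (n = 3, 3, 4 and 3). COL1A1 spans 77.1 to 122 in the metastases and 160.2 to 203 in SQ, above 21.1 to 22.5 in the monolayer, while COL4A1 and COL4A2 are highest in the monolayer.

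RNA of COL1A1, a type I collagen chain, was higher in the cancer cells at both growth sites in the mouse than in the monolayer. COL1A1 measured 82.7, 96.9 and 77.1 in the FBMet libraries and 98.5, 90.4 and 122 in the HBMet libraries, 160.2, 186, 184 and 203 in the SQ libraries and 22.5, 21.1 and 22.2 in the monolayer libraries. No 2 of the sites brain, skin and dish overlapped, with SQ highest and the monolayer lowest. The gene rose 4.12-fold in the metastases, FBMet and HBMet weighted equally, over the monolayer (log2 change 2.04, 95% interval 1.84 to 2.25, limma adjusted p = 1.24e-09) and 8.0-fold in SQ over the monolayer (log2 change 3.00, 2.78 to 3.22, limma adjusted p = 9.26e-11). Both comparisons use the same 3 monolayer libraries.

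Of the 24 collagens tested, 13 rose and 5 fell in the metastases relative to the monolayer, and 12 rose and 4 fell in SQ. Over all genes tested, 42.9% were called in the first comparison (21.9% higher, 21% lower) and 52.4% in the second (21.5% higher, 30.9% lower). The median log2 change of the tested collagens was 0.34 in the metastases and 0.36 in SQ, beside 0.01 and -0.05 over all genes.

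Among the fibrillar genes 6 of 8 rose in the metastases, with a median log2 change of 1.13, and 4 of 8 rose in SQ, with a median of 0.66. None fell in either. COL5A1 (chr9:134641803-134844843, plus strand), whose chain helps to set the diameter of type I fibrils, measured 21.9, 21.7 and 10.7 in FBMet, 18.1, 24.5 and 12.6 in HBMet, 16.8, 38.7, 27.1 and 23.4 in SQ and 4.75, 4.73 and 4.63 in the monolayer. Every tumour library exceeded every monolayer library, and it rose by 1.70 in the metastases and 2.21 in SQ on the log2 scale (limma adjusted p = 1.96e-04 and 2.81e-05). COL3A1 measured 65.2, 63.8 and 47.4 in FBMet, 47.9, 45.4 and 73.3 in HBMet, 60.6, 55.6, 40.7 and 50.7 in SQ and 41.3, 40.04 and 40.2 in the monolayer. All metastases stood above the monolayer, by 0.46 on the log2 scale (limma adjusted p = 0.023), a call that was lost without the 1st, 2nd or 3rd monolayer library (adjusted p = 0.0583, 0.0719 and 0.0707), or with the replicate number as a replicate block (0.0512), with 0.00315 to 0.0796 over all 19 alternatives. In SQ its difference from the monolayer was 0.34 (limma adjusted p = 0.0993), which passed the threshold without the 3rd SQ library (adjusted p = 0.034, range 0.024 to 0.237). COL5A3, COL1A2 and COL5A2, further chains of types V and I, rose in the metastases by 1.31, 1.30 and 0.96 with mean levels below 5. The last 2 overlapped the monolayer. COL1A2 had 10.04, 4.49 and 1.86 in FBMet but 0.163, 0.532 and 1.27 in HBMet, against 0.0769 to 0.319 in the monolayer. COL5A2 had 8.25 in the 1st FBMet library and 0.654 in the 2nd HBMet library, against 0.576 to 0.696 in the monolayer.

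The type IV genes did not move together. COL4A1 measured 6.68, 6.71 and 5.02 in FBMet, 2.89, 6.14 and 11 in HBMet, 4.88, 4.49, 5.43 and 5.44 in SQ and 13.3, 12 and 12.7 in the monolayer. All metastases and SQ libraries lay below all monolayer libraries, and the gene fell at both sites (log2 change -0.96 in the metastases and -1.17 in SQ, limma adjusted p = 0.00484 and 0.00154). COL4A2, its partner across the 126 bases, measured 18.1, 15.7 and 11.4 in FBMet, 7.92, 12.2 and 26.6 in HBMet, 17.4, 16.2, 17.5 and 16.6 in SQ and 35.6, 40.01 and 37.2 in the monolayer, and also fell at both sites (log2 change -1.33 and -1.11, limma adjusted p = 9.61e-04 and 0.00432).

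COL4A5 moved the other way. It measured 241, 215 and 187 in FBMet, 211, 183 and 219 in HBMet, 328, 349, 369 and 342 in SQ and 178, 181 and 177 in the monolayer. All SQ libraries stood above all others and it rose 1.94-fold there over the monolayer (log2 change 0.96, limma adjusted p = 3.29e-07). In the metastases, where every library was above every monolayer library, the log2 change was 0.22 (0.0255). That call was lost without the 1st, 2nd or 3rd monolayer library (limma adjusted p = 0.076, 0.0641 and 0.0814, range over 19 alternatives 0.00435 to 0.0814). COL4A6 rose by 0.81 in SQ (limma adjusted p = 4.19e-04), at 6.9, 5.93, 5.84 and 5.86 in SQ against 2.94, 3.06 and 3.17 in the monolayer, and was at 2.58, 2.75 and 1.51 in FBMet and 2.79, 2.01 and 3.01 in HBMet.

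The beaded-filament collagen type VI was lower in the metastases than in the monolayer for 2 of its 3 tested chains. COL6A1 (chr21:45981770-46005050, plus strand) measured 17.2, 19.8 and 16.2 in FBMet, 10.6, 7.51 and 19.5 in HBMet, 31.2, 27.8, 32.2 and 33 in SQ and 24.5, 24.1 and 23.7 in the monolayer, so every metastasis lay below every monolayer library. It fell in the metastases (log2 change -0.71, limma adjusted p = 0.00752), and in SQ it differed from the monolayer by 0.35 (0.166). Every SQ library was above every monolayer library, and the difference passed the threshold with voom (adjusted p = 6.35e-04) or with only the groups compared in the fit (6.77e-04, range over 16 alternatives 6.35e-04 to 0.329). COL6A2 (chr21:46098112-46132848, plus strand), its neighbour, measured 16.7, 16.2 and 14.6 in FBMet, 12.7, 9.98 and 19.6 in HBMet, 40.5, 38.4, 43.2 and 43.2 in SQ and 29.3, 29.8 and 30.5 in the monolayer. It fell in the metastases (log2 change -0.98, limma adjusted p = 6.11e-05) and rose in SQ (0.45, 0.0199), the SQ call being lost without the 1st or 2nd monolayer library (adjusted p = 0.0576 and 0.0525, range 7.22e-06 to 0.0687).

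Other collagens of the cancer cells also rose in the mouse. COL17A1, the hemidesmosome collagen of epithelia, measured 4.67, 3.63 and 2.88 in FBMet, 6.05, 5.63 and 3.36 in HBMet, 5.16, 6.06, 6.29 and 6.86 in SQ and 0.875, 0.748 and 0.712 in the monolayer, without overlap between tumours and monolayer. It rose by 1.56 in the metastases and 1.99 in SQ (limma adjusted p = 3.38e-06 and 4.71e-07). COL26A1 rose by 0.77 and 0.38 (1.58e-05 and 0.00571). COL7A1, the anchoring fibril collagen that ties basement membrane to the tissue beneath it, rose by 0.62 in SQ (limma adjusted p = 0.018), a call lost without the 4th SQ library (adjusted p = 0.0572) or with the replicate block (0.0811, range 1.77e-04 to 0.0811). COL18A1, the source of endostatin, differed by -0.26 in the metastases (limma adjusted p = 0.0809) and passed the threshold without the 2nd FBMet library (adjusted p = 0.0299, range 0.0236 to 0.215), and in SQ it differed by 0.08.

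**Figure D2:**
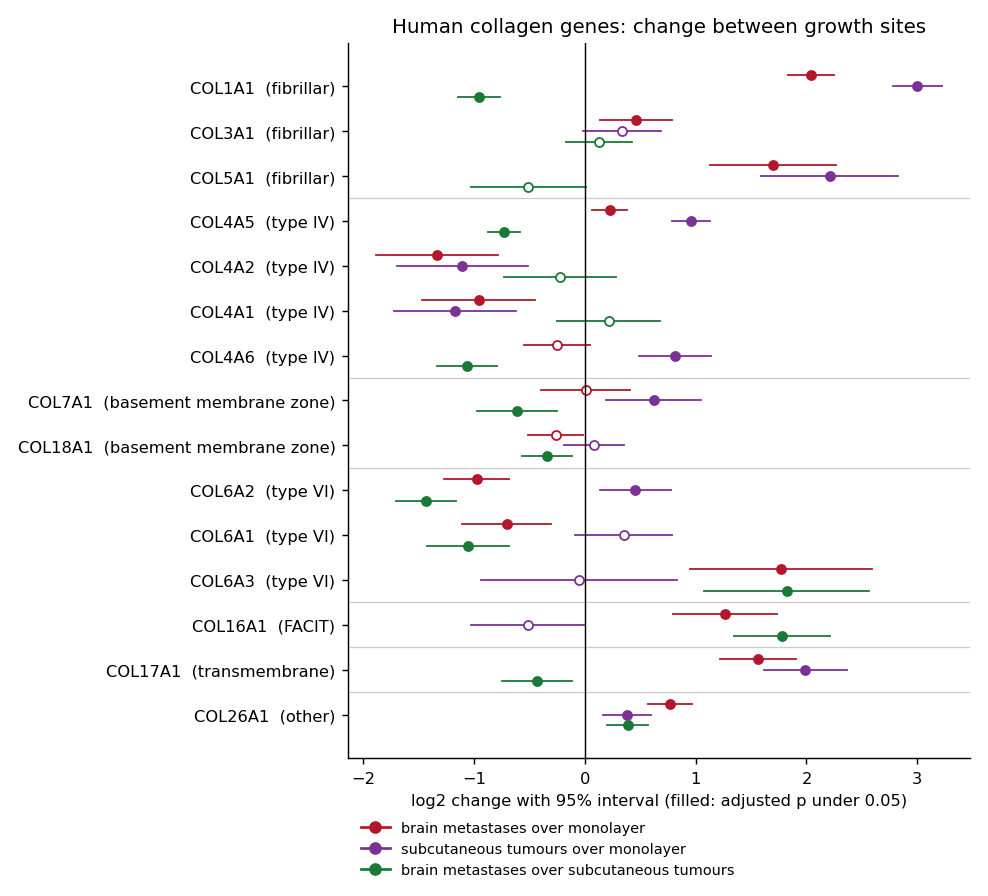
Log2 changes of 15 human collagen genes with their 95% intervals, grouped by class, for metastases over monolayer (red), SQ over monolayer (purple) and metastases over SQ (green). Filled points had a limma adjusted p under 0.05. COL1A1 lies at 2.04, 3.00 and -0.96 in the 3 comparisons, and COL16A1 at 1.26, -0.52 and 1.78.

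Set directly against SQ, the metastases had less RNA of COL1A1, COL4A5, COL6A1 and COL6A2 and more of COL16A1 and COL26A1. Of the 24 genes tested 6 rose and 8 fell, where 50% of all genes tested were called (31.2% higher, 18.8% lower). The median log2 change of the collagens was -0.19, against 0.05 over all genes tested. When the libraries were scaled by median of ratios or by quantiles instead, the higher and lower calls over all genes moved from 4537 and 2739 to 3478 and 3682, or 3655 and 3524, and those of the collagens to 6 and 9, or 7 and 9.

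COL1A1 averaged 94.6 ± 15.7 in the metastases and 183 ± 17.6 in SQ (log2 change -0.96, 95% interval -1.15 to -0.77, limma adjusted p = 1.02e-06), and it was the one fibrillar gene of 8 that was called. COL3A1 differed by 0.13 (0.467) and its groups overlapped. COL5A1 differed by -0.51 (limma adjusted p = 0.0964) and passed the threshold without the 2nd HBMet library or the 1st SQ library (adjusted p = 0.0493 and 0.0258, range 0.0258 to 0.29).

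Of the 4 type IV genes tested, 2 fell and none rose. COL4A5 averaged 209 ± 21.4 in the metastases and 347 ± 17.1 in SQ, with no overlap between libraries (log2 change -0.73, limma adjusted p = 1.04e-06). COL4A6 averaged 2.44 ± 0.566 in the metastases and 6.13 ± 0.514 in SQ (-1.07, adjusted p = 1.12e-05). Neither COL4A1 (0.21, limma adjusted p = 0.44) nor COL4A2 (-0.23, 0.443) passed the test, and 1 library decided each: without the 1st HBMet library the adjusted p of COL4A1 was 0.0221 (range 0.0221 to 0.939), and without the 3rd HBMet library that of COL4A2 was 0.00963 (range 0.00963 to 0.854). HBMet libraries 1 and 3 were the lowest and the highest metastases for both genes.

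COL6A2 averaged 15 ± 3.35 in the metastases and 41.3 ± 2.31 in SQ (log2 change -1.43, limma adjusted p = 6.90e-07), and COL6A1 averaged 15.2 ± 5.01 and 31 ± 2.26 (-1.06, 1.63e-04). For both, every metastasis lay below every SQ library. COL7A1 and COL18A1, both of the basement membrane zone, were called lower (log2 change -0.61 and -0.34, limma adjusted p = 0.00768 and 0.0148). Both calls were lost with the replicate block over all sites (adjusted p = 0.0543 and 0.0551), and that of COL18A1 also without the 4th SQ library (adjusted p = 0.0597, range 0.00443 to 0.0597). COL17A1 was called lower by a small margin (log2 change -0.43, limma adjusted p = 0.0248) and was lost without the 3rd FBMet library (0.0504) or the 2nd, 3rd or 4th SQ library (0.0526, 0.0618 and 0.0825, range 0.0115 to 0.0825) and with that block (0.0734).

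The 3 tested FACIT genes, which encode fibril-associated collagens with interrupted helices, all rose in the metastases over SQ. COL16A1 (chr1:31652263-31704319, minus strand) measured 19.7, 22.9 and 21.2 in FBMet and 16.8, 19.4 and 11.4 in HBMet, against 3.14, 8.65, 4.07 and 3.78 in SQ, and 7.71, 7.45 and 5.89 in the monolayer. The metastases lay above every SQ and every monolayer library. The gene rose 3.43-fold over SQ (log2 change 1.78, limma adjusted p = 6.69e-06) and by 1.26 over the monolayer (3.63e-04), while SQ differed from the monolayer by -0.52 (0.0837), past the threshold without the 2nd SQ library (adjusted p = 0.00158, range 0.00158 to 0.217). COL26A1 averaged 85.3 ± 15 in the metastases and 64.4 ± 4.5 in SQ (log2 change 0.39, limma adjusted p = 0.00181).

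COL6A3 was read with a limit, because human reads of it appeared in tumour-free mouse brain, where 78 of the 124 human collagen reads were of COL6A3. In the cancer cell reads it measured 3.18, 3.1 and 10.6 in FBMet, 3.0, 2.84 and 8.88 in HBMet, 0.746, 1.34, 0.199 and 0.269 in SQ and 0.108, 0.851 and 1.14 in the monolayer. At the rate per mouse read seen in tumour-free brain, mouse RNA would supply 27.2% of the COL6A3 reads in FBMet, 29.3% in HBMet and 1.69% in SQ, and at the rate per read of mouse Col6a3 35.7%, 31.3% and 611%. The gene was called higher in the metastases than in SQ (log2 change 1.82, limma adjusted p = 6.34e-04) and than in the monolayer (1.77, 0.00191). In the metastases the first estimate was 0.498% and 0.374% for COL1A1 and 0.0519% and 0.0484% for COL4A5 in FBMet and HBMet, and for COL3A1, COL4A1, COL4A2, COL6A1, COL6A2 and COL16A1 it was 0.

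Between the brain regions, forebrain and hindbrain metastases differed in 2 collagens of 24, both higher in FBMet, where 3.3% of all genes tested were called (1.85% higher, 1.45% lower). With same-numbered FBMet and HBMet libraries as a replicate block the same number of collagens was called, and 1026 of all genes in place of 481. COL1A2 measured 10.04, 4.49 and 1.86 in FBMet, against 0.163, 0.532 and 1.27 in HBMet (log2 change 1.81, limma adjusted p = 0.0264). The groups did not overlap, but the call was lost without the 1st or 2nd FBMet library or the 1st or 2nd HBMet library (adjusted p = 0.0582, 0.0637, 0.071 and 0.0545, range 0.00356 to 0.268). COL18A1 measured 5.18, 7.62 and 6.53 in FBMet, against 3.2, 4.23 and 3.8 in HBMet (log2 change 0.64, limma adjusted p = 0.021), and was lost without the 2nd FBMet or the 1st HBMet library (0.0636 and 0.057, range 0.00423 to 0.261). COL6A1 and COL6A2 passed the threshold, higher in FBMet, without the 3rd HBMet library (limma adjusted p = 0.00236 and 0.0239, against 0.162 and 0.515 with all libraries). COL1A1 averaged 85.6 ± 10.2 in FBMet and 104 ± 16.4 in HBMet (-0.27, 0.193), and its libraries overlapped. The 10 other collagens with a mean of at least 5 at either site, namely COL4A5 (0.07), COL4A1 (0.03), COL4A2 (0.09), COL3A1 (0.10), COL5A1 (-0.04), COL16A1 (0.43), COL17A1 (-0.33), COL6A3 (0.13), COL26A1 (0.29) and COL7A1 (0.46), were not called, and the last 2 passed the threshold without the 3rd FBMet library (limma adjusted p = 0.0372 and 0.0394).

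Type IV genes made up 51.3% ± 2.5 of the reads of type IV and fibrillar genes together in FBMet, 52.6% ± 2.4 in HBMet, 59.4% ± 2.21 in SQ and 70.4% ± 0.569 in the monolayer. By rescaled RPKM the shares were 57.4% ± 2.09, 55.5% ± 1.29, 58.2% ± 2.05 and 76.5% ± 0.589. On both scales every tumour library lay below every monolayer library. Within the tumours, the summed RPKM of the fibrillar genes was 177 ± 29.7 in FBMet, 185 ± 29.2 in HBMet and 269.99 ± 20.7 in SQ, against 71.3 ± 1.36 in the monolayer, and that of the type IV genes was 239 ± 31.8, 229.8 ± 29, 375 ± 17 and 233 ± 3.41.

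Genes that build, process or bind collagen were followed from lists. In the metastases relative to SQ, 6 of 20 tested genes of collagen synthesis and folding rose and 11 fell, beside 31.2% and 18.8% of all genes. The collagen chaperone gene SERPINH1 fell (log2 change -0.27), as did the prolyl 4-hydroxylase gene P4HA2 (-0.69) and P3H3 of the prolyl 3-hydroxylase family (-1.25). CRTAP, part of the prolyl 3-hydroxylation complex, rose (0.33). LOXL2, a crosslinking lysyl oxidase, fell to 143 ± 23.5 in the metastases, against 204 ± 18.9 in SQ (-0.52, limma adjusted p = 5.45e-04).

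Of 11 tested basement membrane partners, 2 rose and 6 fell in the metastases relative to SQ. The laminin chain genes LAMB2 and LAMB3 fell (log2 change -0.78 and -1.07). Of 7 collagen receptors, 2 rose and 4 fell. ITGB1, the shared integrin subunit of collagen receptors, rose (log2 change 0.45), and MRC2, an endocytic collagen receptor, fell (-1.82). LAMC1 differed by 0.02 and was not called. SPARC, a collagen-binding secreted protein, averaged 1.47 ± 0.465 in the metastases and 0.254 ± 0.166 in SQ, and neither the lysyl oxidase gene LOX nor the nidogen gene NID1 exceeded 0.167 in any human library.

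Relative to the monolayer, 6 of 20 tested synthesis genes rose and 6 fell in the metastases, beside 21.9% and 21% of all genes tested, and 8 rose and 6 fell in SQ, beside 21.5% and 30.9%. SERPINH1 rose by 0.19 in the metastases and 0.46 in SQ, and PPIB, a prolyl isomerase that acts on procollagen, by 0.48 and 0.86. BMP1, the protease that removes the C-terminal propeptide of procollagen, rose by 1.24 and 0.96, and the collagen-binding integrin subunit ITGA1 by 2.61 and 2.03. Basement membrane partners rose in 3 and fell in 1 of 11 in the metastases, and in SQ 8 rose and 1 fell. In SQ, LAMB3 rose by 1.24 and LAMB2 by 0.97.

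How much of each collagen's RNA in a tumour piece came from the cancer cells differed widely between genes. Of all reads, human reads were 6.24% in FBMet, 6.81% in HBMet and 90.6% in SQ. Of the reads of COL4A5 and its mouse counterpart Col4a5, 65.7% ± 4.82 in FBMet, 54% ± 7.26 in HBMet and 99.6% ± 0.217 in SQ were human. For COL26A1 the human share of reads was 89.9% ± 2.81, 90.2% ± 4.09 and 99.9% ± 0.0359.

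For COL1A1 the human share of reads was 24.8% ± 8.67 in FBMet, 20.8% ± 6.44 in HBMet and 13.2% ± 6.16 in SQ. For COL3A1 it was 45.7% ± 10.03, 25.9% ± 8.25 and 5.78% ± 2.36. Both were thus above the human share of all reads in the metastases and far below it in SQ. COL4A1 and COL4A2 came almost wholly from the host in the brain: the human share of COL4A1 reads was 0.571% ± 0.15 in FBMet and 0.871% ± 0.382 in HBMet, and that of COL4A2 0.916% ± 0.35 and 1.46% ± 0.606. In SQ, 3.92% ± 1.37 of the COL4A1 reads and 12.2% ± 3.24 of the COL4A2 reads were human. The lengths behind the authors' RPKM differ between the species, at 786 bases for COL4A5 and 4898 for Col4a5. For COL26A1 and Col26a1 they were 2970 and 899. Shares set per length move with that mismatch, up for COL4A5 and down for COL26A1. Set per that length, the human share of COL4A5 was 92.2% ± 1.5, 87.8% ± 2.94 and 99.9% ± 0.0350 in FBMet, HBMet and SQ, that of COL26A1 73.2% ± 5.98, 74% ± 8.84 and 99.8% ± 0.118, that of COL1A1 18.8% ± 7.16, 15.6% ± 5.17 and 9.66% ± 4.74, and that of COL4A1 0.344% ± 0.0908, 0.525% ± 0.231 and 2.4% ± 0.849.

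In the host, the vascular basement membrane genes Col4a1 and Col4a2 rose in both brain regions that carried tumours. Col4a1 measured 162, 218 and 136 in FBMet, against 52.2, 52.8, 48 and 44.8 in FB, and 109, 138 and 117 in HBMet, against 48.7, 65.9, 46.4 and 45.7 in HB. No tumour-bearing library overlapped a tumour-free one. The gene rose 3.37-fold in forebrain (log2 change 1.75, 95% interval 1.43 to 2.08, limma adjusted p = 4.96e-06) and 2.34-fold in hindbrain (1.22, 0.90 to 1.55, 1.97e-04). These are bulk pieces, in which a change in the number of cells of a type and a change in RNA per cell cannot be told apart. The fit held 14 libraries, and 36 of the 44 mouse collagens were tested.

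In forebrain with tumours over forebrain without, 15 collagens rose and 1 fell, where 30.4% of all genes tested were called (14.4% higher, 16% lower). The median log2 change was 0.32 for the collagens and -0.03 over all genes. In hindbrain 4 rose and none fell at the same threshold by limma, where 3.25% of all genes were called (2.92% higher, 0.33% lower), with medians of 0.01 and -0.01.

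Col4a2 measured 102, 135 and 90.6 in FBMet, against 43.4, 43.9, 41.1 and 38.1 in FB, and 63.9, 74.4 and 68.7 in HBMet, against 36.5, 44.8, 42.1 and 41.1 in HB. Again no tumour-bearing library overlapped a tumour-free one, with log2 changes of 1.35 in forebrain and 0.73 in hindbrain (limma adjusted p = 3.50e-06 and 0.00121). Col4a2 gave 0.909 ± 0.0373 reads per Col4a1 read in FBMet, against 1.2 ± 0.0187 in FB, and 0.813 ± 0.0406 in HBMet, against 1.15 ± 0.161 in HB. The other 3 tested type IV genes were not called in either region.

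Endothelial and mural marker sums moved with these genes in forebrain. The endothelial markers summed to 80.1 to 123 in FBMet, against 52.4 to 65.6 in FB, with 5 of 7 called higher, and the mural markers to 84.7 to 126 against 68.1 to 75.2, with 4 of 8 called higher. In hindbrain no endothelial or mural marker was called, with endothelial sums of 92.2 to 109.9 in HBMet against 58.2 to 111 in HB and mural sums of 82.9 to 97 against 69.6 to 103. All 4 astrocyte markers were higher in FBMet, with sums of 1662 to 2405 against 1120.3 to 1180.3 in FB. In hindbrain 1 of the 4 was called higher, Gfap (log2 change 1.41, limma adjusted p = 0.00436), with sums of 2116 to 2733 in HBMet against 1476 to 1833 in HB, again without overlap. The part of these cell types in the collagen changes was not tested.

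**Figure D3:**
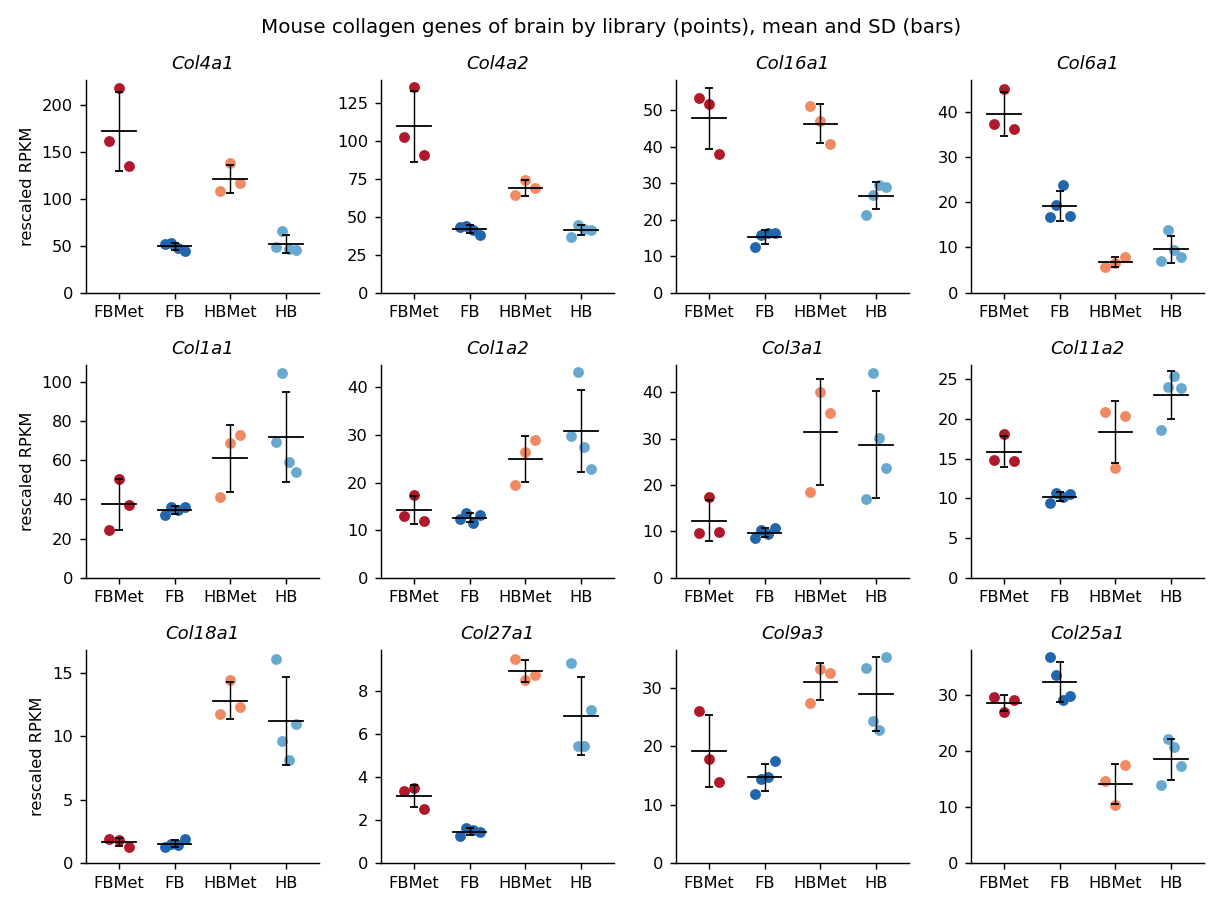
Rescaled RPKM of 12 mouse collagen genes in FBMet, FB, HBMet and HB libraries, 1 panel per gene with its own axis. Points are libraries, bars mean and SD (n = 3, 4, 3 and 4). Col4a1, Col4a2 and Col16a1 lie higher in both regions with tumours, Col6a1 in the forebrain, and Col1a1, Col1a2 and Col3a1 are lower in FB than in HB.

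The major fibrillar genes of the host were not called in either region. Col1a1 measured 24.4, 50.6 and 37.3 in FBMet, against 31.9, 36.3, 34.6 and 36.3 in FB, and 41.3, 68.9 and 72.7 in HBMet, against 69.3, 105, 59 and 53.8 in HB. The tumour-bearing libraries overlapped the tumour-free ones in both regions, with log2 changes of 0.05 (95% interval -0.51 to 0.60, limma adjusted p = 0.911) in forebrain and -0.22 (-0.78 to 0.33, 0.747) in hindbrain. Col3a1 measured 9.63, 17.4 and 9.85 in FBMet, against 8.62, 10.2, 9.38 and 10.7 in FB, and 18.5, 40.1 and 35.6 in HBMet, against 16.9, 44.1, 30.1 and 23.6 in HB, again overlapping in both regions. Its log2 change was 0.26 (-0.40 to 0.92) in forebrain and 0.14 (-0.52 to 0.80) in hindbrain. For Col1a2 it was 0.14 (-0.26 to 0.53) and -0.27 (-0.67 to 0.12). Fibroblast markers summed to 82.7 to 96 in FBMet and 90.5 to 99.99 in FB, but most of that sum was Pdgfra, which oligodendrocyte precursors also express, at 67.8 to 79.5 in FBMet and 60.3 to 70.8 in FB. Dcn, the decorin gene of fibroblasts, was the 1 of 6 tested markers called, and it was lower in FBMet, at 6.85, 9.63 and 7.64, against 19.4, 20.8, 18.4 and 18.7 in FB (log2 change -1.18, limma adjusted p = 1.18e-04). In hindbrain Dcn had 22.2, 35.6 and 35 in HBMet, against 24.2, 29.4, 28.8 and 21.8 in HB (0.22, 0.545). The part of fibroblast content in these results was not tested.

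Even so, 7 of 11 tested fibrillar genes rose in forebrain. Col11a2, a chain of type XI collagen, measured 14.8, 18.1 and 14.7 in FBMet, against 9.4, 10.7, 10.2 and 10.6 in FB, without overlap (log2 change 0.58, limma adjusted p = 0.00574). Col11a1, its partner chain, measured 5.63, 8.17 and 6.16 in FBMet, against 3.44, 2.89, 3.44 and 3.16 in FB (0.84, 0.00119). Col24a1, a fibrillar gene of developing bone, measured 3.8, 6.76 and 5.22 in FBMet, against 1.58, 1.33, 2.12 and 1.69 in FB (1.20, 1.92e-04). The remaining 4 were Col5a1, Col5a2, Col5a3 and Col27a1, with means below 5 and log2 changes of 0.36, 0.60, 0.63 and 0.74. In hindbrain 1 of the 11 rose, Col5a3, at 1.54, 2.05 and 1.51 in HBMet against 0.684, 0.738, 0.578 and 0.842 in HB (log2 change 0.65, limma adjusted p = 0.002). Col27a1 in hindbrain (log2 change 0.37, limma adjusted p = 0.252) passed the threshold without the 1st HB library (0.0272, range 0.0272 to 0.581). No other hindbrain collagen with a mean of at least 5 was called, the log2 changes of Col2a1, Col7a1, Col18a1, Col15a1, Col9a3, Col8a2, Col9a2, Col23a1, Col12a1, Col11a2 and Col25a1 being 0.44, 0.28, 0.22, 0.16, 0.12, 0.04, -0.03, -0.14, -0.28, -0.32 and -0.38.

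Of the fibril-associated collagens, Col16a1 was higher with tumours in both regions. It measured 53.4, 51.9 and 38.1 in FBMet, against 12.6, 15.7, 16.4 and 16.5 in FB, and 51.3, 47 and 40.9 in HBMet, against 21.2, 26.8, 29.5 and 28.9 in HB. It rose 2.98-fold in forebrain and 1.72-fold in hindbrain (log2 changes 1.57 and 0.78, limma adjusted p = 4.96e-06 and 0.0035), with no overlap in either region.

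Col9a2 and Col19a1, of the same class, gave calls in forebrain that 1 library could end. Col9a2, which encodes a type IX chain, measured 18.1, 14.9 and 15.5 in FBMet, against 18.1, 24.2, 21.8 and 20.7 in FB, and was called lower (log2 change -0.37, limma adjusted p = 0.0278), which was lost without the 2nd or 3rd FBMet library (0.124 and 0.0762) or the 2nd, 3rd or 4th FB library (0.074, 0.0603 and 0.0512, range 0.012 to 0.124). Col19a1 was called higher (0.41, limma adjusted p = 0.0427) and was lost without the 1st, 2nd or 3rd FBMet library (0.0679, 0.174 and 0.0709), the 3rd or 4th FB library (0.0794 and 0.121), and under 4 other alternatives (range 0.0133 to 0.174). Col9a3, another type IX chain, measured 26, 17.8 and 13.8 in FBMet, against 11.9, 14.4, 14.8 and 17.5 in FB, and differed by 0.34 (0.207). Choroid plexus markers summed to 1239, 28.5 and 35.2 in the same FBMet libraries, so the 1st stood far above the others, against 273 to 897 in FB, and the part of choroid plexus in these values was not tested. Col25a1, a transmembrane collagen of neurons, differed by -0.17 (0.459), Col15a1 by 0.30 (0.16) and Col23a1 by -0.30 (0.114), the last past the threshold with the replicate block (0.0484).

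Col6a1, of the beaded-filament type VI, was called in the forebrain and not in the hindbrain. It measured 37.2, 45.1 and 36.1 in FBMet, against 16.8, 19.3, 23.8 and 16.8 in FB, without overlap, and 5.69, 6.66 and 7.8 in HBMet, against 6.95, 13.9, 9.4 and 7.92 in HB, with overlap. It rose 2.01-fold in forebrain (log2 change 1.01, limma adjusted p = 0.00156), and in hindbrain the log2 change was -0.42 (95% interval -0.81 to -0.02, 0.305). The forebrain change exceeded the hindbrain change by 1.43 on the log2 scale (SE 0.26, limma adjusted p = 0.0336 for the interaction). That was the one interaction called among 36 collagens, where 0.456% of all genes tested were called (0.254% higher, 0.203% lower). Col6a2, which encodes the next chain of the same helix, differed by 0.40 in forebrain (0.115). Of the 4 type VI genes tested, 2 were called higher in forebrain. Col6a3, with means below 5, measured 2.98, 2.95 and 2.13 in FBMet, against 1.12, 1.38, 1.40 and 1.20 in FB, without overlap. In hindbrain Col6a3 had 2.05, 2.05 and 2.33 in HBMet, against 1.88, 3.46, 2.48 and 2.88 in HB.

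The Col6a1 interaction was lost without the 1st or 2nd FBMet library (limma adjusted p = 0.0542 and 0.132), the 1st, 2nd or 3rd HBMet library (0.112, 0.0813 and 0.0504), the 2nd or 4th FB library (0.0555 and 0.0745) or the 3rd HB library (0.0672), with a range of 0.00721 to 0.132 and a log2 difference of 1.25 to 1.55 over 23 alternatives. For Col4a1 the forebrain change exceeded the hindbrain change by 0.53 (95% interval 0.07 to 0.99, limma adjusted p = 0.2), for Col4a2 by 0.62 (0.28 to 0.96, 0.0863), for Col16a1 by 0.79 (0.37 to 1.21, 0.0815) and for Col11a2 by 0.90 (0.50 to 1.31, 0.0545). Single libraries moved these as well: without the 3rd FBMet library the adjusted p was 0.0355 for Col4a2, 0.0299 for Col16a1 and 0.0453 for Col11a2, without the 1st HB library it was 0.0461, 0.0234 and 0.0126, and without the 1st FB library it was 0.0497 for Col11a2. The Col11a2 interaction also passed under median-of-ratios scaling (0.0424), quantile scaling (0.0491), a pseudocount of 0.1 (0.0497), a filter at 5 (0.0445) and voom (0.0449), within a range of 0.0126 to 0.193. Forebrain changes also exceeded hindbrain changes, without a call, by 1.09 for Col24a1 (95% interval 0.59 to 1.59, limma adjusted p = 0.0555). For Col6a3 the difference was 0.90 (0.48 to 1.32, 0.0579) and for Col11a1 0.84 (0.39 to 1.29, 0.0817). With the replicate number as a replicate block over all 4 groups, 2 collagen interactions were called, the second being Col24a1 (adjusted p = 0.0462), and with the block set within tumour-bearing and within tumour-free libraries the second was Col16a1 (0.021).

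**Figure D4:**
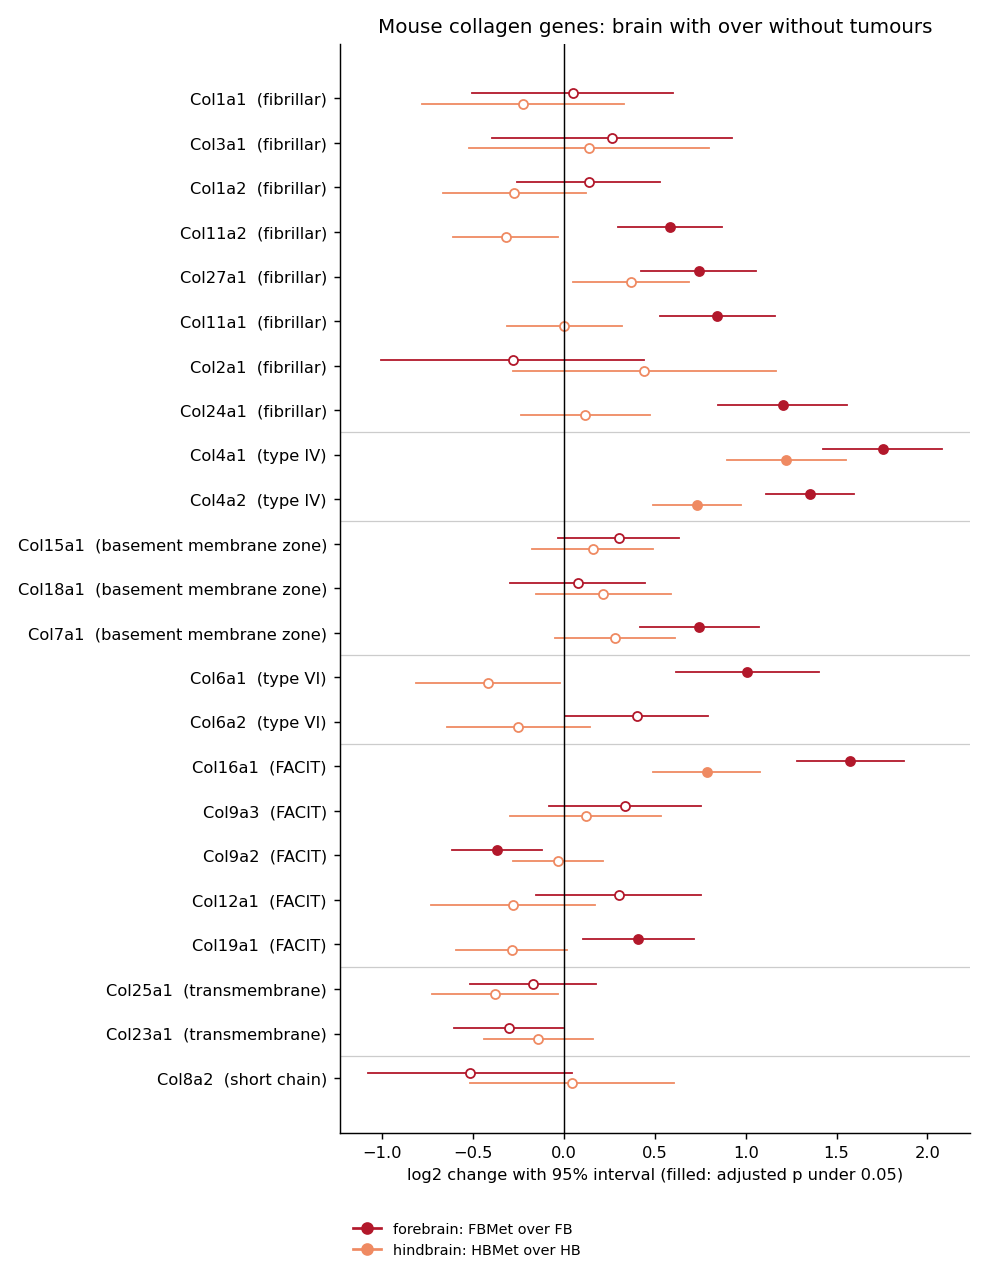
Log2 changes of 23 mouse collagen genes with their 95% intervals for FBMet over FB (red) and HBMet over HB (orange), grouped by class. Filled points had a limma adjusted p under 0.05. Col4a1 lies at 1.75 and 1.22 and Col6a1 at 1.01 and -0.42, and Col1a1, Col1a2 and Col3a1 stay unfilled in both regions.

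The tumour-free regions themselves differed in collagen RNA. In FB relative to HB 4 collagens were higher and 22 lower of 36, where 52.8% of all genes tested were called (20.2% higher, 32.5% lower). Under median-of-ratios scaling 4140 genes were called higher and 4106 lower, in place of 3194 and 5133, and under quantile scaling 3925 and 4201. The collagens gave 4 higher with 20 lower, and 4 higher with 19 lower. The FB and HB libraries here are those set against FBMet and HBMet above.

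Fibrillar genes were lower in FB for 10 of 11, with a median log2 difference of -0.98, against -0.09 over all genes tested. Col3a1 averaged 9.73 ± 0.926 in FB and 28.7 ± 11.6 in HB (log2 difference -1.39, limma adjusted p = 0.001), Col1a1 34.8 ± 2.07 and 71.7 ± 22.9 (-0.98, 0.00356), and Col1a2 12.7 ± 0.956 and 30.8 ± 8.71 (-1.19, 4.10e-05). For each of the 3 genes every FB library lay below every HB library. The 2 main type IV genes did not follow them: Col4a1 differed by -0.05 (95% interval -0.35 to 0.25) and Col4a2 by 0.02 (-0.21 to 0.24). Meningeal markers were lower in FB for 5 of 6, with sums of 137 to 189 in FB and 261 to 384 in HB. Of 6 fibroblast markers tested, Dcn, Lum and Fbln1 were lower in FB (log2 differences -0.40, -0.66 and -0.44) and Pdgfra was higher (0.27). Also lower in FB were 3 of 8 mural, 3 of 4 astrocyte and 4 of 6 oligodendrocyte lineage markers. The part of these cell types in the fibrillar difference was not tested. Col15a1 differed by -0.29 (limma adjusted p = 0.105) and passed the threshold without the 1st HB library (0.0123, range 0.0123 to 0.282). Col23a1, a transmembrane collagen, was called lower (log2 difference -0.33, limma adjusted p = 0.0428), which was lost without the 1st, 3rd or 4th FB library (0.0687, 0.0826 and 0.106) or the 1st or 2nd HB library (0.0685 and 0.142, range 0.0158 to 0.152).

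Col18a1, a basement membrane heparan sulfate proteoglycan, measured 1.23, 1.48, 1.42 and 1.89 in FB, against 16.1, 9.66, 8.11 and 11 in HB, with every FB library far below every HB library (log2 difference -2.25, limma adjusted p = 3.52e-08). Its levels were 1.85, 1.8 and 1.27 in FBMet and 11.8, 14.5 and 12.3 in HBMet. Col27a1, Col11a2, Col9a3, Col16a1, Col9a2, Col8a2, Col7a1 and Col12a1, a fibril-associated gene of tendon, were also lower in FB, with log2 differences of -1.65, -1.09, -0.92, -0.76, -0.48, -0.77, -1.19 and -0.91. The Col8a2 call was lost with voom (adjusted p = 0.102) and with the replicate block within tumour status (0.0547). The 4 genes higher in FB were Col6a1, Col25a1, Col19a1 and Col22a1, by 0.97, 0.79, 0.81 and 0.69. Col6a1 was the one type VI gene higher in FB, at 16.8, 19.3, 23.8 and 16.8 in FB and 6.95, 13.9, 9.4 and 7.92 in HB.

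The host collagens of the tumour-bearing brain and of SQ differed by far more. Of 41 mouse collagens tested in the 10 tumour libraries, 9 were higher and 29 lower in brain than in SQ, where 80.7% of all genes tested were called (47.1% higher, 33.5% lower). The median over all genes tested was 0.26 on the log2 scale in this comparison, and that of the collagens -1.94. All 7 fibroblast markers were lower in brain, with sums of 82.7 to 96 in FBMet, 89.6 to 111 in HBMet and 1306 to 2475 in SQ. Pdgfra alone gave 67.8 to 79.5 of the sum in FBMet and 50.7 to 58.5 in HBMet. The other markers differed by more: Dcn had 6.85 to 9.63 in FBMet and 22.2 to 35.6 in HBMet, against 385 to 812 in SQ (log2 change -4.97), and Dpt 0.0283 to 0.12 and 0.0721 to 0.132, against 186 to 409.9 in SQ (-7.88), while Lum and Mfap5 had log2 changes of -5.22 and -8.05. Also lower in brain were all 8 mural, 5 of 7 endothelial, all 4 skin epithelium and all 4 skeletal muscle markers. Mural markers summed to 84.7 to 126 in FBMet and 82.9 to 97 in HBMet, against 549 to 615 in SQ. Higher in brain were 2 endothelial, 6 of 7 choroid plexus, 5 of 6 meningeal, 5 of 6 oligodendrocyte lineage, all 4 astrocyte and all 4 neuron markers. The part of these cell types in the collagen differences was not tested.

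Col3a1 averaged 21.8 ± 13 in the tumour-bearing brain and 20361 ± 7346 in SQ, 980.2-fold lower in brain (log2 change -9.94, limma adjusted p = 4.98e-10). Col1a1 averaged 49.2 ± 18.8 and 23226 ± 8519 (472-fold lower, log2 change -8.88) and Col1a2 19.6 ± 6.94 and 4549.8 ± 1538 (223-fold lower, -7.80). Together the fibrillar genes had a median log2 change of -5.24. In SQ, Col3a1, Col1a1 and Col1a2 gave the most reads of the host collagens, with 13349.5 ± 4544, 8858 ± 3103 and 8250.3 ± 2659 RPM of mouse reads. Col1a1 gave 1.07 ± 0.0254 reads per Col1a2 read in SQ, and 0.552 ± 0.138 and 0.506 ± 0.0548 in FBMet and HBMet.

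Basement membrane genes differed less than the major fibrillar ones. Col4a1 averaged 147 ± 39.7 in the tumour-bearing brain and 2631 ± 468 in SQ (-4.18, limma adjusted p = 1.91e-09), and Col4a2 89.1 ± 26.6 and 1041 ± 182 (-3.56, 2.56e-09). Col15a1, a vascular basement membrane zone collagen, Col18a1 and Col7a1 were lower in brain, with log2 changes of -5.37, -2.81 and -3.30, and so were the type VI genes Col6a1, Col6a2 and Col6a3, with -5.05, -5.55 and -7.51. Of the further fibrillar genes, Col5a1, Col5a2, Col5a3, Col11a1, Col24a1 and Col27a1 had log2 changes of -6.18, -7.31, -5.24, -2.65, -0.64 and -1.48. The fibril-associated genes Col12a1, Col14a1 and Col16a1 had -6.34, -6.07 and -2.55, and the short-chain genes Col8a1 and Col8a2, which form lattices in vessel walls and cornea, -5.84 and -1.94. Col28a1, a collagen of peripheral nerve, and Col23a1 had -1.91 and -0.65. All of these were called lower in brain, the Col23a1 call being lost with the replicate block (limma adjusted p = 0.0594).

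The 9 collagens higher in tumour-bearing brain than in SQ were led by 4 genes. Col9a2 was higher by 4.30, Col25a1 by 4.03, Col9a3 by 3.70 and Col11a2 by 2.47 on the log2 scale, and Col25a1 had 26.9 to 29.7 in FBMet and 10.3 to 17.4 in HBMet, against at most 0.547 in SQ. Col17a1 (log2 change -3.85) varied within SQ, at 26.2, 32.6, 0.821 and 68, and skin epithelium markers summed to 2317, 3195, 2.15 and 3507 in the same libraries. The library with the lowest Col17a1 was the one with almost no skin epithelium RNA.

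The type IV share of the host's type IV and fibrillar reads was 58.8% ± 2.09 in FBMet, against 43.1% ± 1.99 in FB, 41.3% ± 2.27 in HBMet, against 27.8% ± 0.598 in HB, and 7.04% ± 2.33 in SQ. By rescaled RPKM it was 73.4% ± 2.88 against 54.1% ± 2.53, 54.3% ± 3.59 against 35.8% ± 2.14, and 7.48% ± 2.56. The summed RPKM of the type IV genes was 285 ± 66.1 in FBMet, against 93.8 ± 6.49 in FB, and 196 ± 21.8 in HBMet, against 98.9 ± 11.9 in HB. That of the fibrillar genes was 103 ± 25.7 in FBMet, against 79.4 ± 4.33 in FB, and 167 ± 32.9 in HBMet, against 179 ± 39.5 in HB.

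**Figure D5:**
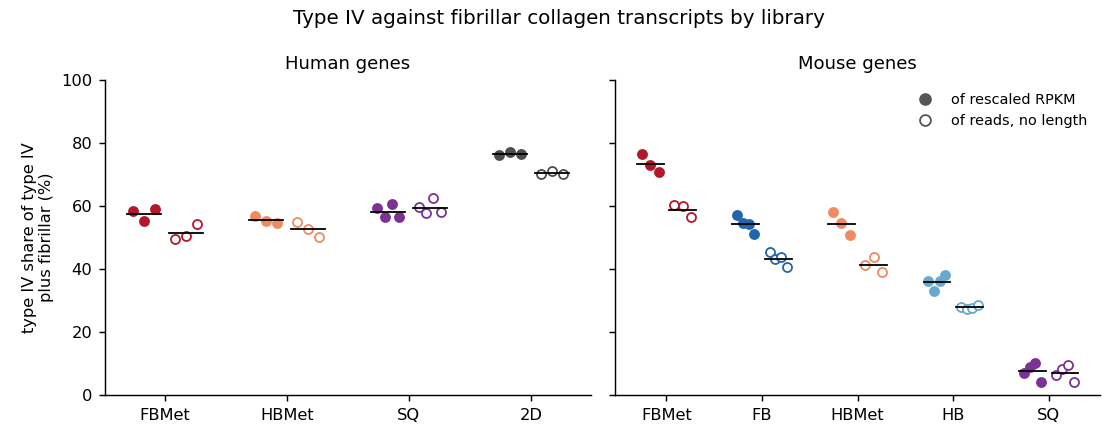
Type IV share, in percent, of the summed type IV and fibrillar collagen level, for human genes in FBMet, HBMet, SQ and monolayer (left) and mouse genes in FBMet, FB, HBMet, HB and SQ (right). Each point is a library, filled for rescaled RPKM and open for reads. The human share by reads averages 51.3% to 59.4% in the tumours and 70.4% in the monolayer, and the mouse share 58.8% in FBMet, 43.1% in FB and 7.04% in SQ.

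Host genes that make or bind collagen also rose in forebrain. Of 20 synthesis and folding genes tested, 8 rose and 1 fell in FBMet over FB, and of 16 basement membrane partners 9 rose and none fell, beside 14.4% and 16% of all genes. Plod1, a lysyl hydroxylase of collagen, rose to 56.1 ± 8.37 in FBMet, against 34 ± 2.39 in FB (log2 change 0.70, limma adjusted p = 6.11e-04), and the chaperone gene Serpinh1 rose by 0.43 (0.0303). The laminin genes Lama4, Lamc1 and Lama5 rose by 0.66, 0.63 and 0.58, and the nidogen gene Nid1 by 0.61. Sparc averaged 722 ± 108 in FBMet and 722 ± 101 in FB.

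Of 6 collagen receptors, 4 rose in forebrain, and 1 rose in hindbrain. That one was Lair1, an inhibitory collagen receptor of leukocytes, at 25.7 ± 3.91 in FBMet against 11.3 ± 1.16 in FB (1.12, limma adjusted p = 4.62e-05) and 19.8 ± 3.64 in HBMet against 11.1 ± 1.18 in HB (0.77, 0.00239). No synthesis, processing, crosslinking or basement membrane partner gene was called in hindbrain, where 3.25% of all genes were, and Serpinh1 differed there by 0.45 (0.12). No partner gene's change differed between the regions by the interaction test.

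Between tumour-bearing brain and SQ, 18 of 20 synthesis genes, 5 of 5 crosslinking genes and 11 of 15 basement membrane partners were lower in brain, beside 33.5% of all genes. Serpinh1 averaged 17.3 ± 4.24 in brain and 464 ± 75.9 in SQ (-4.69), Lox 0.77 ± 0.373 and 83.4 ± 18.4 (-5.57), and Pcolce, an enhancer of propeptide removal, 14.5 ± 5.67 and 399.6 ± 94.1 (-4.74). Nid1, Lamc1 and Sparc were lower as well, with log2 changes of -4.26, -2.91 and -2.33. Ddr1, a collagen receptor kinase that myelinating cells also express, was higher in brain by 1.70, and Adamts3, a procollagen N-propeptidase, by 2.96. In FB relative to HB, 1 synthesis gene was higher and 9 lower of 20, beside 20.2% and 32.5% of all genes tested, and Sparc averaged 722 ± 101 in FB and 1760.2 ± 178 in HB (-1.29).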

How the data were processed

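RNA sequencing values of 21 libraries were taken as deposited RPKM, which the authors computed from total RNA libraries on hg38 (GRCh38) and mm10 (GRCm38), per the submitters' processing notes. The aligner, counter and species assignment: not given in the sources used here. Each library's values were rescaled to sum to 1000000 per organism. Comparisons were made on log2(value + 1) with limma 3.58.1 in R 4.3.3 (trend, robust), over genes that reached 1 in 3 or more fitted libraries, in 3 fits (13 human tumour and monolayer libraries, 14 mouse brain libraries, 10 mouse tumour libraries), and Benjamini-Hochberg adjustment ran over all genes of a fit. Whole reads were recovered from the RPKM steps for 100% of 33975 human and 32644 mouse genes above 0 (within 0.02 reads), so voom on those reads was one alternative.

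Collagens with a mean of at least 5 on either side were named, and of the partner lists the largest calls with SERPINH1, LOX, SPARC, NID1 and LAMC1. The members, lists and tests were chosen with earlier results of these data known. Same-numbered FBMet and HBMet libraries deviated together in the mouse reads (correlation 0.243 to 0.445, against at most -0.0366 for other numbers), so those numbers were taken to pair these libraries, whose human reads come from the same samples. In human reads the same correlation was 0.0441 to 0.0662, against at most 0.0107 for other numbers. For FB and HB it was -0.0559 to 0.349, so no pairing was taken there. Promoters and canonical transcripts came from GENCODE 44 on GRCh38. A partner gene and a promoter covered by the naming rule are not reported here. The fits were tested on simulated reads with the same spread for every gene and with independent libraries. That test therefore does not cover the pairing or the differing spreads of these data. Replicate pairs differed beyond sampling noise (chi-square per degree of freedom 2.68 to 60.3 over 39 pairs).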

Additional observations from a re-analysis of the deposited data

Results flagged for a closer look

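In the groups of 4 libraries, 8 of 69 gene and group combinations held a library that stood apart from the other 3 by Dixon's criterion, where chance gives about 1 in 20. In SQ these were COL4A6 in replicate 1 (6.9), Col12a1 in replicate 2 (439), Col4a2 and Col27a1 in replicate 3 (1312 and 20.5) and Col14a1, Col1a2 and Col1a1 in replicate 4 (128, 6828 and 35864 rescaled RPKM). In HB it was Col4a1 in replicate 2 (65.9). Every SQ library was far above every brain library for Col14a1, Col1a2, Col1a1, Col12a1 and Col4a2, and each of these calls remained without the library named.

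The forebrain change of Col6a1 exceeded its hindbrain change by 1.43 on the log2 scale, a difference between regions that the interaction test called (limma adjusted p = 0.0336). The call ended without any of 8 of the 14 libraries, given in the report (adjusted p 0.0504 to 0.132), and with no filter (0.086). Outside the comparisons, the 8 tumour-free brain libraries held 124 human collagen reads of 34837 human reads, on 11 of 43 genes, of which 78 were COL6A3, 21 COL25A1 and 10 COL11A2. The 3 monolayer libraries held 112 mouse collagen reads of 38532 mouse reads, on 17 of 44 genes, with 36 of Col3a1. Both sums exceeded the 3 reads that a count of 0 allows.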

How the results depend on the processing

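Over 2958 values of 162 named gene results, 2842 kept direction and side of the threshold, 75 fell short of it, 41 newly passed it and 0 reversed. With the filter at 5, which tests fewer genes, the calls were 11 for metastases over monolayer, 10 for SQ over monolayer, 1 for FBMet over HBMet, 9 for FBMet over FB, 2 for the interaction and 17 for FB over HB. FBMet over HBMet had 0 collagen calls by limma with no filter, with voom or with only the groups compared. The interaction had 3 calls under median-of-ratios scaling, quantile scaling or voom, 2 with a pseudocount of 0.1 and 0 with no filter. It had 2 with the replicate block, over all groups or within tumour status. All 4 groups enter the interaction, so it has no alternative with only the groups compared. Leaving out 1 library at a time gave 12 to 16 calls for metastases over SQ, 13 to 18 for metastases over monolayer, 14 to 16 for SQ over monolayer, 0 to 5 for FBMet over HBMet, 13 to 16 for FBMet over FB, 4 to 5 for HBMet over HB, 0 to 7 for the interaction, 24 to 26 for FB over HB and 35 to 38 for tumour-bearing brain over SQ. The cause was not tested.

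With the replicate number as a block, the human calls numbered 11 for metastases over SQ, 16 for metastases over monolayer, 14 for SQ over monolayer and 2 for FBMet over HBMet. The mouse reads pair the FBMet and HBMet libraries by number, whereas the SQ and monolayer numbers were not shown to pair with them. With each same-numbered pair averaged into 1 sample, 15 collagens were called for metastases over SQ and 17 for metastases over monolayer, and no named human gene lost its call. FBMet over HBMet, with the block within tumour status, again gave 2. Mouse calls with the block were 15 for FBMet over FB, 4 for HBMet over HB, 27 for FB over HB and 38 for tumour-bearing brain over SQ. FBMet over HBMet called 270 genes higher and 211 lower, against 218 and 255 under median-of-ratios scaling, with 2 collagens higher in both. Tumour-bearing brain over SQ had an all-gene median of 0.26, 0.17 under median-of-ratios and -0.01 under quantile scaling.

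Chosen after seeing the data, human shares by reads instead of by RPKM length were 20.8% for COL1A1 in HBMet, 65.7%, 54.0% and 99.6% for COL4A5, 0.571%, 0.871% and 3.92% for COL4A1 and 89.9%, 90.2% and 99.9% for COL26A1 in FBMet, HBMet and SQ. The lower human depth of the metastases limits genes of low level there.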
